A study of Mus musculus with 6 samples.

Results

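Transcripts of 6 genes of protease inhibitors and kinin precursors, the kininogens Kng1 and Kng2 and the serpins Serpina3c, Serpina3f, Serpina3g and Serpina3n, were followed through the cells of the mouse calvaria. The 6 genes were taken by symbol from the 55450 genes counted, and they had been selected on their levels in the Cxcl12-rich stromal cells of the same libraries, so their stromal levels are a description and carry no test. Kininogens are plasma proteins, made mainly by the liver, from which kallikreins release bradykinin, a peptide that widens vessels and raises their permeability, and their cystatin domains inhibit cysteine proteases. The Serpina3 genes form a cluster that expanded in the mouse from a single ancestor of alpha-1-antichymotrypsin, and their products trap serine proteases or, in some members, cathepsins. Perivascular marrow cells that secrete Cxcl12 and carry the leptin receptor Lepr are known for retaining and feeding blood stem and progenitor cells.

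Cells were taken from wild-type C57BL/6 mice, stated to be male, at 2 months (02m), 12 months (12m) and 18 months (18m), with 6 to 8 mice pooled at each age. No gene was altered and no agent was given. At every age, CBMA denotes the library from the sagittal suture and its adjoining marrow-bearing bone, and CBMD that from more distant parietal bone. The calvaria were stripped of dura and periosteum and digested with collagenase and dispase, erythrocytes were lysed and dead cells depleted, so the cells counted are those that survived these steps. The study describes cutting both parts from the harvested calvaria, so the sites of an age cannot be taken as separate sets of mice. With 1 library for each age and site no test across mice was possible. Levels are unique molecular identifiers (UMIs, each standing for a captured RNA molecule) summed over the cells of a class and scaled to a total of 1000000 UMIs (CPM). Their exact 95% intervals, given in parentheses, cover counting error only and not the spread between cells or between pools of mice. UMIs of a gene can bunch in few cells, so intervals that do not overlap, or that leave out 1, are a description and not a test.

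The 43420 barcodes, 3280 to 9749 per library, left 37576 cells after limits on genes, UMIs and the mitochondrial share. The median cell held 2806 to 3930.5 UMIs, and any pair of libraries shared 7 to 25 cell barcodes, 0.179% to 0.299% of the smaller library. The 12m libraries went against the stated sex: Xist, the RNA of the inactive X chromosome, stood at 564 and 596 CPM there and at 0.252 to 0.360 CPM in the other libraries, and 37.7% and 42.1% of their cells held an Xist UMI. Transcripts of 4 Y-linked genes summed to 81.0 and 91.1 CPM at 12m and to 126 to 215 CPM elsewhere. Ratios and class levels that rest on a 12m library are therefore also given without its Xist-positive cells.

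Stromal cells were set by UMI limits. Cells with at least 10 UMIs of Cxcl12 and at least 1 of Lepr, called Cxcl12-high cells here, were few in most libraries. From the youngest to the oldest age CBMA held 3, 5 and 110 of them, and CBMD held 1, 26 and 45. All but 2 of these 190 cells lay in clusters of mesenchymal identity, and those 2 lay in the endothelial cluster. Cells outside that gate with at least 20 UMIs of Col1a1 and Col1a2 together, the other stromal cells, came to 48, 7 and 128 for CBMA by age, with 44, 10 and 4 for CBMD, and all 241 lay in mesenchymal clusters. Only CBMA_18m, CBMD_12m and CBMD_18m therefore held enough Cxcl12-high cells to describe, and comparisons with 02m in these cells were not possible. A further 280 cells of the mesenchymal clusters met neither limit and form the rest of these clusters. The blood classes and endothelial cells were named from clusters by their markers.

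The label of the Cxcl12-high cells was checked against genes that define them. In CBMA_18m, CBMD_12m and CBMD_18m Cxcl12 itself stood at 24540, 25020 and 27960 CPM and Lepr at 1189, 1295 and 1204 CPM, which follows from the gate. Adipoq, the hormone adiponectin, which was not part of the gate, stood at 1067, 1182 and 904 CPM and at 0 to 0.769 CPM in the other stromal cells of the 6 libraries. Marks of blood cells were present at low levels. Ptprc, the leukocyte antigen CD45, stood at 57.3, 39.9 and 22.7 CPM in the Cxcl12-high cells, and S100a8, an abundant neutrophil transcript, at 2580, 611 and 190 CPM. Neutrophils themselves held 0.0908 CPM of Kng1, 0.130 of Kng2, 0 of Serpina3c, 0.143 of Serpina3f, 1.14 of Serpina3g and 0.0519 of Serpina3n over the 6 libraries. The 3 Cxcl12-high cells of CBMA_02m held 37500 CPM of S100a8 and 623 CPM of Ptprc, and no member's level is read from them.

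The genes lie in a pair of clusters in GRCm38. Kng2 (ENSMUSG00000060459, chr16:22985854-23029482, minus strand) and Kng1 (ENSMUSG00000022875, chr16:23057865-23082078, plus strand) are transcribed away from each other, with starts 28.4 kb apart, and Kng2 overlaps Gm6493 on the same strand. On chromosome 12, Serpina3c (ENSMUSG00000066361, chr12:104146382-104153870, minus strand), Serpina3f (ENSMUSG00000066363, chr12:104214544-104221129, plus strand), Serpina3g (ENSMUSG00000041481, chr12:104236245-104241939, plus strand) and Serpina3n (ENSMUSG00000021091, chr12:104406729-104414329, plus strand) span 253 kb between the outermost starts. Serpina3f and Serpina3g are neighbors, with starts 21.7 kb apart. Counting of near-identical copies can be uncertain, so windows of 90 bases in the last 600 bases of each transcript, where 3′ reads fall, were compared with all other genes. Of these windows 3.37% in Kng1 were shared with Kng2, 3.18% in Kng2 with Kng1, and 5.42% in Serpina3g with Serpina3f, Serpina3h or Serpina3i, whereas none were shared in Serpina3c, Serpina3f or Serpina3n.

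The 4 Serpina3 promoters are printed because Serpina3f and Serpina3g were also counted in blood and endothelial cells, as described further on, and Serpina3c and Serpina3n hardly at all. Each run holds 250 bases before and 50 bases after the start in RefSeq (GRCm38.p6), 5′ to 3′ on the strand of the gene. Capitals mark a match to TTCNNNGAA, the palindromic letters that STAT factors bind, which reads the same on both strands. The windows are chr12:104153823-104154122 for Serpina3c, chr12:104214294-104214593 for Serpina3f, chr12:104235897-104236196 for Serpina3g and chr12:104406458-104406757 for Serpina3n.
Serpina3c: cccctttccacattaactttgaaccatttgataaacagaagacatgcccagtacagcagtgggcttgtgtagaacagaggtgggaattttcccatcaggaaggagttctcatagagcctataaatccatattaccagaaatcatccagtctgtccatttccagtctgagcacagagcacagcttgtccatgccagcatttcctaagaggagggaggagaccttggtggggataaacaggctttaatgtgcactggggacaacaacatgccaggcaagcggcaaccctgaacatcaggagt
Serpina3n: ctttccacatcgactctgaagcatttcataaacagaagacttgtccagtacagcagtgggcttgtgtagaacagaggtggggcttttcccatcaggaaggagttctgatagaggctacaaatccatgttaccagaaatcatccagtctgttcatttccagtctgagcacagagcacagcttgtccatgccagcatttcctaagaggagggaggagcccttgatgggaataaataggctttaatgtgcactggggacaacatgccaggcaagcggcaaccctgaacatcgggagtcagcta
Serpina3f: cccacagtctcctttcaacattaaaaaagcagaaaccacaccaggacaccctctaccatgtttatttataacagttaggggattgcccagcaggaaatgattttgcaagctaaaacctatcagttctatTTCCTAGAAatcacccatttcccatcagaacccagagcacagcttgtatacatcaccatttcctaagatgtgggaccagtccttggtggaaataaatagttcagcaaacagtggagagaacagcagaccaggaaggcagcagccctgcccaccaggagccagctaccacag
Serpina3g: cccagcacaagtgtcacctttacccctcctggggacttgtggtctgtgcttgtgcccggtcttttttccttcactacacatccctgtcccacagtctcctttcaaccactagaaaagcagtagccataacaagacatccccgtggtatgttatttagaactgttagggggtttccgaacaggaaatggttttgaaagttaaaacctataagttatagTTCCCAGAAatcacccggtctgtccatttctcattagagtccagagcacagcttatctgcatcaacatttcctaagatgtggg

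The promoters fell into a close pair and a looser pair. Serpina3c and Serpina3n were identical at 93.5% of 294 aligned bases and Serpina3f and Serpina3g at 83.7% of 202, while the pairs across these groups matched at 74.1% to 78.8%. The promoter of Kng2, from the other chromosome, matched the same 4 windows at 70.1% to 77.3%, but over fewer bases. It aligned at 153 to 197 bases, against 200 to 278 for the pairs across groups. Gapped positions are left out of these shares, so likeness over unlike lengths was not weighed. Serpina3g held TTCCCAGAA with its first base at position -33 from the RefSeq start, and Serpina3f held TTCCTAGAA at -121. The Serpina3g window ends at 104236196, upstream of the gene start of 104236245 given above, whereas that of Serpina3f includes its gene start. These positions are thus counted from starts that are not alike, and their difference is not read. The aligned window reads TTACCAGAA in Serpina3c (at -120) and in Serpina3n (at -123), a difference of C3A from Serpina3g, counted from 1 at the 5′ end of the 9 bases with the base of Serpina3g first. Serpina3f differs from Serpina3g by C5T, a position that TTCNNNGAA leaves free. These letters occur in 8.30% of 32851 promoters of the same length, so a match in any given promoter is not rare and is given as a description only. On either strand, TTGCNNAA (C/EBP) was found once in the Kng2 promoter and at 2 positions in that of Serpina3f against 10.8% of all promoters. TATAAA was found at -132 in that of Serpina3c and, on the opposite strand, at -186 in that of Serpina3f, against 13.6%. These too are matches of letters only. CCCNNGGGA (EBF, 6.56% of promoters) and the interferon-stimulated response element (GAAA, any 2 bases, GAAA, in 3.44%) were in none of the 6 windows searched, of which 2 were from Serpina3f. Its second RefSeq start lies downstream of the one printed and puts the STAT letters at -210, with no TATAAA in that window.

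Kininogen transcripts were found almost entirely in the Cxcl12-high cells. Kng1 stood at 418 CPM (377 to 462, 379 UMIs) in CBMA_18m, 286 CPM (207 to 385, 43 UMIs) in CBMD_12m and 504 CPM (433 to 584, 178 UMIs) in CBMD_18m. Kng2 stood at 312 CPM (277 to 351, 283 UMIs), 352 CPM (264 to 461, 53 UMIs) and 368 CPM (308 to 437, 130 UMIs) in the same order. The Kng2 intervals overlapped in all 3 libraries, and those of Kng1 overlapped in each pair but CBMD_12m and CBMD_18m. The few Cxcl12-high cells of the other libraries gave 1 and 2 UMIs of Kng1 in CBMA_02m and CBMA_12m, 0 and 2 of Kng2, and none of either in CBMD_02m. There 3 UMIs in the single cell would stand at 564 CPM.

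**Figure D1:**
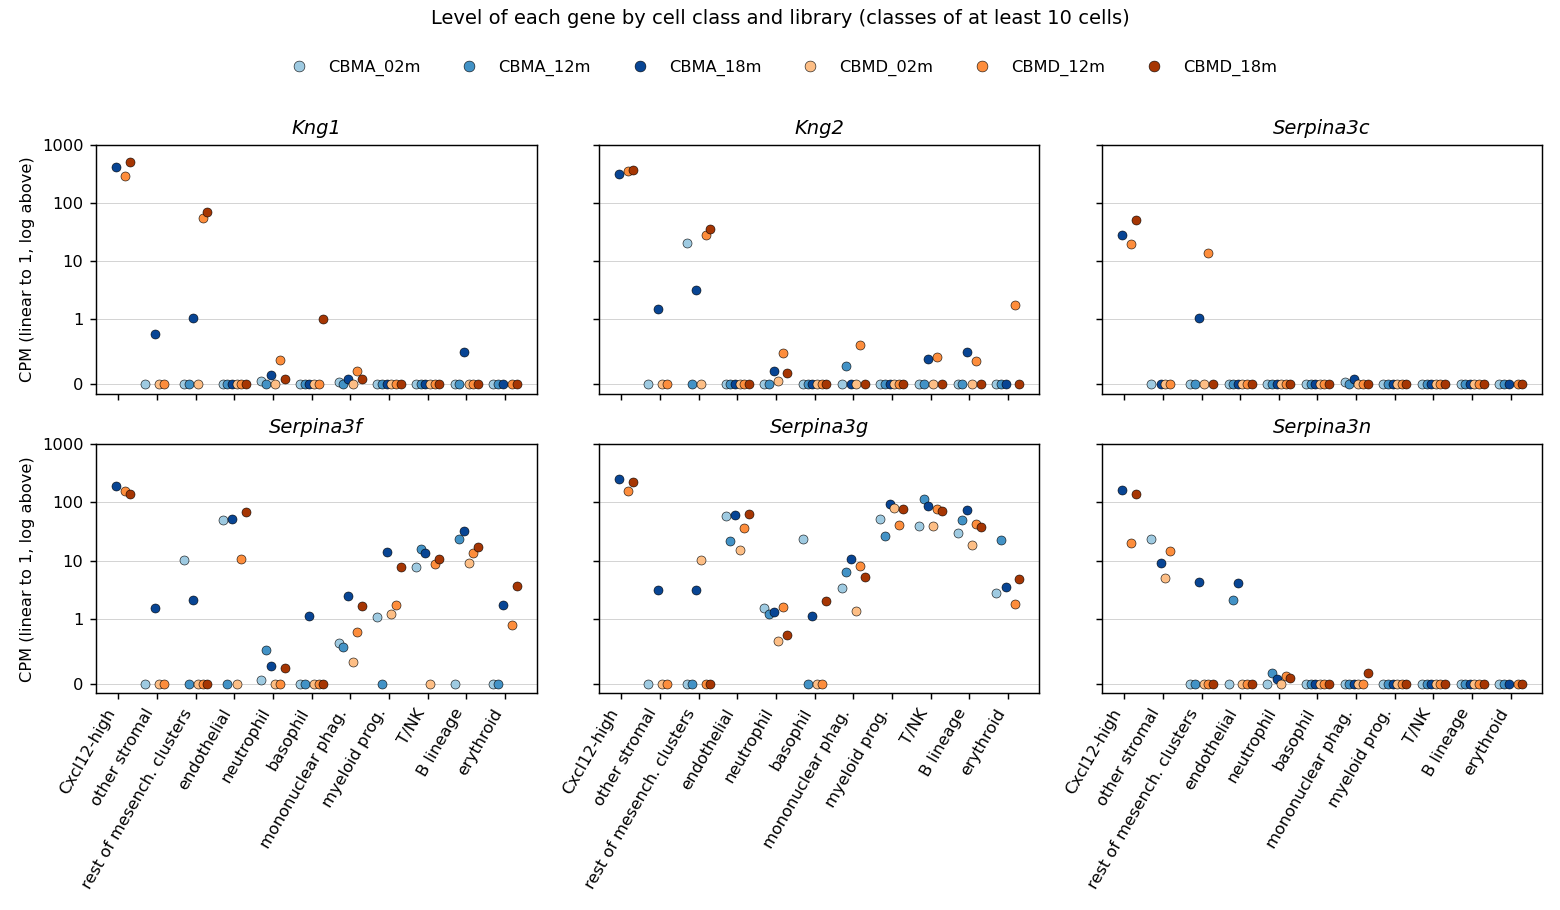
Level of each gene (CPM, linear up to 1 and logarithmic above) in each cell class, with 1 point per library for classes of at least 10 cells, blue for CBMA and orange for CBMD, darker with age. Kng1, Kng2 and Serpina3c stand at 19.9 to 504 CPM in the Cxcl12-high cells, reach 70.8, 35.4 and 14.0 CPM in the rest of the mesenchymal clusters from at most 4 UMIs a library, and lie under 2 CPM in each other class plotted. Serpina3n is also counted in other stromal cells at 5.12 to 23.8 CPM, and Serpina3f and Serpina3g are also counted in endothelial, T/NK, B-lineage and myeloid progenitor cells.

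Other stromal cells held next to none. In CBMA_18m, where 128 of them were counted, they gave 1 UMI of Kng1 (0.769 CPM, 0.0195 to 4.29) and 2 UMIs of Kng2 (1.54 CPM, 0.186 to 5.56). The ratio of Cxcl12-high to other stromal cells there was 543 for Kng1 (96.9 to 21510) and 203 for Kng2 (55.6 to 1683). In CBMD_12m the 10 other stromal cells held 0 UMIs of either kininogen, against 43 and 53 in the Cxcl12-high cells. The lower limit of the Kng2 ratio there was 6.26, and Kng1 had too few UMIs for the comparison. Without Xist-positive cells 26 UMIs of Kng2 in 18 cells stood against 0 in 4 cells, with a lower limit of 1.96. Over the 6 libraries together, 96.6% of all Kng1 UMIs (603 of 624) and 94.0% of all Kng2 UMIs (468 of 498) were in the 190 Cxcl12-high cells. The rest of the mesenchymal clusters held 7 UMIs of Kng1 (4.62 CPM) and 8 of Kng2 (5.28 CPM), and 4 of the 7 came from a single cell of CBMD_12m. All blood classes together, 36476 cells, held 13 UMIs of Kng1 and 20 of Kng2, and the 389 endothelial cells held 0 of both, which allows up to 1.91 CPM.

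Among the serpins, Serpina3c had the most restricted counts and the lowest level. Serpina3c, described as a kallikrein-binding serpin, stood at 28.7 CPM (18.7 to 42.0, 26 UMIs) in CBMA_18m, 19.9 CPM (4.11 to 58.2, 3 UMIs) in CBMD_12m and 51.0 CPM (30.2 to 80.6, 18 UMIs) in CBMD_18m. All 3 intervals overlapped. The other stromal cells of the 6 libraries and the endothelial cells held 0 UMIs of Serpina3c, the rest of the mesenchymal clusters 2 and all blood classes 2, so that 92.2% of its UMIs (47 of 51) were in the Cxcl12-high cells. In CBMA_18m its ratio of Cxcl12-high to other stromal cells had a lower limit of 9.40, from 26 UMIs against 0.

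Serpina3n, an inhibitor of granzyme B and neutrophil elastase, was the member most often counted in other stromal cells. In the Cxcl12-high cells it stood at 161 CPM (136 to 189, 146 UMIs) in CBMA_18m, 19.9 CPM (4.11 to 58.2, 3 UMIs) in CBMD_12m and 142 CPM (105 to 187, 50 UMIs) in CBMD_18m, so that CBMD_12m lay below both others without overlap. Without Xist-positive cells CBMD_12m stood at 37.8 CPM (7.80 to 111), and its interval then overlapped that of CBMD_18m. In the other stromal cells it stood at 23.8 CPM (10.9 to 45.3, 9 UMIs) in CBMA_02m, 9.23 CPM (4.77 to 16.1, 12 UMIs) in CBMA_18m, 5.12 CPM (0.621 to 18.5, 2 UMIs) in CBMD_02m and 14.7 CPM (0.373 to 82.0, 1 UMI) in CBMD_12m. The CBMD_12m value of the Cxcl12-high cells thus overlapped with those of the other stromal cells. In CBMA_18m the Cxcl12-high cells were 17.4-fold higher (9.68 to 34.5). Of all Serpina3n UMIs 84.0% (199 of 237) were in Cxcl12-high cells and 10.1% (24) in other stromal cells, while the rest of the mesenchymal clusters held 4, endothelial cells 4 and all blood classes 6.

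Serpina3f and Serpina3g, the latter an intracellular inhibitor of lysosomal cathepsins known from activated lymphocytes, were high in the Cxcl12-high cells and were counted in other classes as well. Serpina3f stood at 193 CPM (165 to 224, 175 UMIs) in CBMA_18m, 159 CPM (102 to 237, 24 UMIs) in CBMD_12m and 142 CPM (105 to 187, 50 UMIs) in CBMD_18m. Serpina3g stood at 248 CPM (217 to 283, 225 UMIs), 159 CPM (102 to 237, 24 UMIs) and 224 CPM (177 to 279, 79 UMIs) in the same order, and the intervals of each gene overlapped between libraries. Of the other stromal cells only those of CBMA_18m held any, 2 UMIs of Serpina3f and 4 of Serpina3g, for ratios of 125 (34.2 to 1044) and 80.6 (31.1 to 298). The Cxcl12-high cells held 34.4% of all Serpina3f UMIs (250 of 726) and 13.6% of all Serpina3g UMIs (338 of 2479), and all blood classes held 55.8% (405) and 82.4% (2042).

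**Figure D2:**
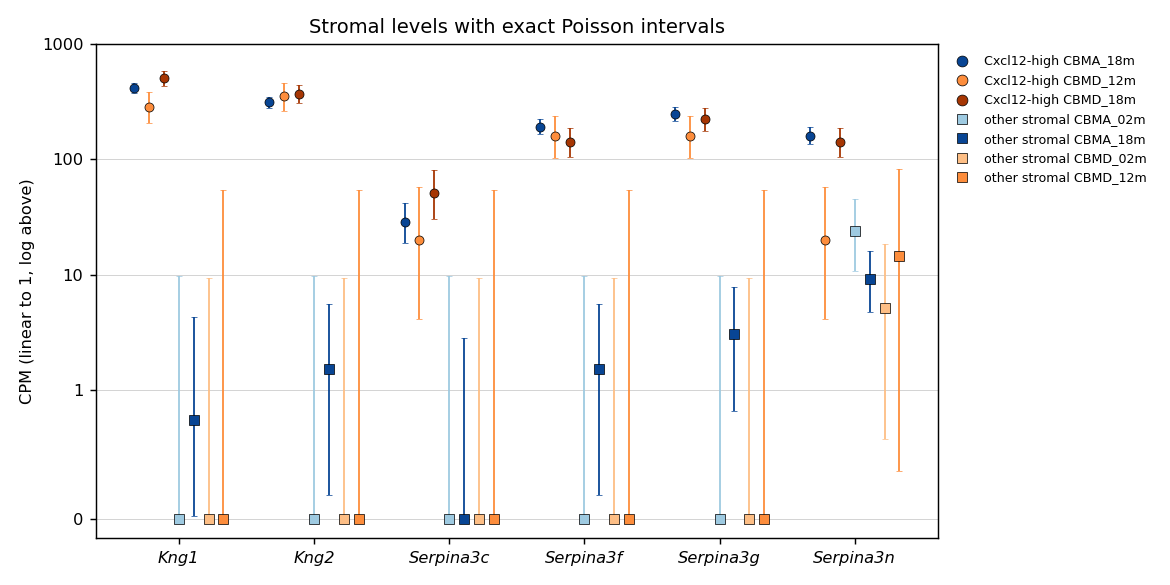
Level (CPM, linear up to 1 and logarithmic above) of each gene in Cxcl12-high cells (circles) and other stromal cells (squares) of libraries with at least 10 such cells, with exact 95% Poisson intervals. The circles stand at 19.9 CPM or more for every gene, and among the squares only Serpina3n exceeds 5 CPM, at up to 23.8 CPM.

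In all, 5 of the 5 members with at least 50 UMIs over both sums were at least 1.5-fold higher in Cxcl12-high than in other stromal cells of CBMA_18m, where 20.2% of the 6389 genes compared were. In CBMD_12m it was 1 of 1, against 33.5% of 642 genes. Against all blood classes together, 5 of 5 were higher in CBMA_18m (33.1% of genes), 3 of 3 in CBMD_12m (32.1%) and 5 of 5 in CBMD_18m (30.4%). The members were selected on such contrasts, so nothing is read from these counts. Serpina3g had the smallest ratios over blood, 13.8 (11.8 to 16.1), 8.36 (5.30 to 12.6) and 16.6 (12.9 to 21.1) in CBMA_18m, CBMD_12m and CBMD_18m, followed by Serpina3f with 44.3 (35.5 to 55.4), 52.7 (31.6 to 85.4) and 42.3 (29.7 to 59.7). Without Xist-positive cells on either side the CBMD_12m ratios were 51.0 for Serpina3f (16.2 to 139, from 6 UMIs) and 6.20 for Serpina3g (2.45 to 13.1, from 7 UMIs).

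Endothelial cells, which lie against the Cxcl12-rich cells in marrow, held 66 UMIs of Serpina3f (34.1 CPM) and 90 of Serpina3g (46.5 CPM) over the 6 libraries, and 4 of Serpina3n. In CBMA_18m the Cxcl12-high cells exceeded them 3.73-fold for Serpina3f (2.60 to 5.47), 4.03-fold for Serpina3g (2.91 to 5.70) and 38.4-fold for Serpina3n (12.9 to 188). For Kng1 and Kng2 the lower limits of the ratio were 80.6 and 60.1, from 0 endothelial UMIs. In CBMD_18m the ratios were 2.09 for Serpina3f (1.23 to 3.67) and 3.47 for Serpina3g (2.10 to 5.99). At least 1.5-fold higher were 5 of 5 members in both libraries, against 25.0% of genes in CBMA_18m and 25.5% in CBMD_18m, again a contrast close to the selection.

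The kininogens were also found in the largest shares of Cxcl12-high cells. In CBMA_18m, 78.2% of cells (69.3 to 85.5) held Kng1, 77.3% Kng2, 49.1% Serpina3g, 46.4% Serpina3f, 46.4% Serpina3n and 20.9% Serpina3c, at a median of 8322 UMIs per cell. Neutrophils of that library, which should lack these transcripts, had a median of 2924 UMIs. Of 4356 such cells 0.0459% held Kng1, 0.0689% Kng2, 0.0918% Serpina3f, 0.413% Serpina3g and 0.0230% Serpina3n. Serpina3c was in 0 of them, and 3 cells would be 0.0689%. With each cell thinned to 2000 UMIs, of 105 Cxcl12-high cells 50 held Kng1, 42 Kng2, 26 Serpina3g, 25 Serpina3f, 20 Serpina3n and 5 Serpina3c. Thinned neutrophils stayed at or below 0.294%. In CBMD_12m, at a median of 5246 UMIs, 53.8% held Kng1 and 57.7% Kng2, and in CBMD_18m, at 7007 UMIs, 64.4% and 71.1%. Thinned, these shares became 38.1% and 23.8% of 21 cells and 40.5% and 35.7% of 42 cells.

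Single cells differed widely. At least 1 kininogen UMI was in 96 of 110 cells (87.3%) of CBMA_18m, 17 of 26 (65.4%) of CBMD_12m and 34 of 45 (75.6%) of CBMD_18m, and both kininogens in 68.2%, 46.2% and 60.0%. At least 1 Serpina3 member was in 77.3%, 46.2% and 68.9%, and all 6 members were in 5, 1 and 5 cells. The highest cell held 26 UMIs of Kng1 in CBMA_18m, 7 in CBMD_12m and 23 in CBMD_18m. The serpins were the more concentrated, since the tenth of CBMA_18m cells with the most UMIs of a gene held 57.3% of Serpina3g, 54.3% of Serpina3f and 46.6% of Serpina3n UMIs, against 36.7% for Kng1 and 34.6% for Kng2. Lower levels alone raise this measure, and that part was not tested.

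**Figure D3:**
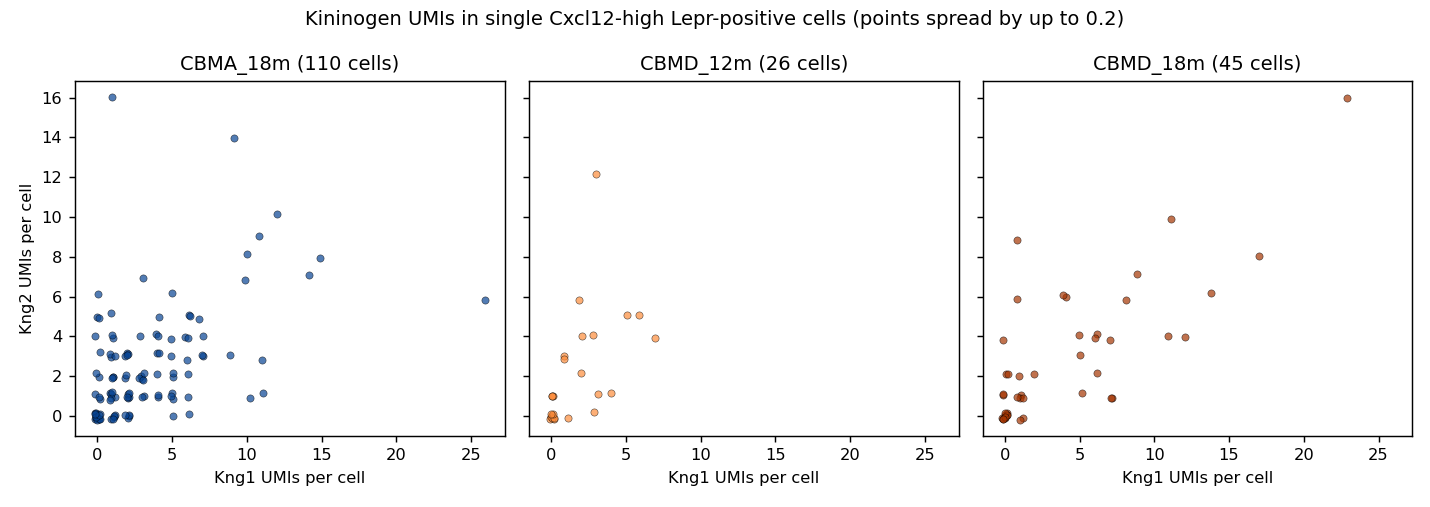
UMIs of Kng1 (horizontal) and Kng2 (vertical) in each Cxcl12-high cell of CBMA_18m (110 cells), CBMD_12m (26) and CBMD_18m (45), with points spread slightly to show overlaps. Both kininogens were in 68.2%, 46.2% and 60.0% of cells, and the highest cells reached 26 UMIs of Kng1 and 16 of Kng2.

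At full depth the kininogens were counted mostly in the same cells. In CBMA_18m Kng2 was in 87.2% of the 86 cells with Kng1 and in 41.7% of the 24 cells without, in CBMD_12m in 85.7% of 14 and 25% of 12, and in CBMD_18m in 93.1% of 29 and 31.2% of 16. Serpina3c was counted in 23 of 86 cells with Kng1 and 0 of 24 without in CBMA_18m, and in 14 of 29 and 0 of 16 in CBMD_18m. Deeper cells hold more of every gene, so the same was counted after thinning to 2000 UMIs. Then, in CBMA_18m, 21 of 105 cells held both kininogens, with 50 holding Kng1 and 42 Kng2. Kng2 was thus in 21 of the 50 cells with Kng1 against 42 of all 105, shares that lay close together. In CBMD_12m it was in 5 of 8 cells with Kng1 against 5 of all 21, and in CBMD_18m in 12 of 17 against 15 of all 42. In these few CBMD cells Kng2 was still the more frequent where Kng1 was counted. The cells of a library share their source, and these counts are given without a test.

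Levels depended on how far a cell lay inside the gate. Over all libraries, 162 cells with at least 40 UMIs of Cxcl12 held 596 UMIs of Kng1 (451 CPM) and 460 of Kng2 (348 CPM). The 16 cells with 20 to 39 Cxcl12 UMIs held 6 and 6 (80.5 CPM each), and the 12 cells with 10 to 19, just inside the limit, held 1 and 2 (11.7 and 23.4 CPM). The 15 Lepr-positive cells with 5 to 9 Cxcl12 UMIs, just outside, held 0 of both and 1 UMI of Serpina3g. Almost all of the signal thus came from cells far above the limit.

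Within the gate, cells rich in Adipoq held more kininogen RNA than cells without it. This division of the Cxcl12-high cells was chosen after values were seen and is a description. In CBMA_18m, Kng1 stood at 97.7 CPM in the 20 cells with 0 Adipoq UMIs, 321 CPM in the 28 cells with 1 to 4 and 553 CPM in the 62 cells with 5 or more, while their median depth was 8908, 7958 and 8260 UMIs. Depth was less even in CBMD. Its median in cells with 0 and with 5 or more was 4756 and 7516 UMIs in CBMD_12m, and 6496 and 9457 in CBMD_18m. The part of depth in this division was not tested. For Kng1 the ratio of cells with 5 or more to cells with 0 was 5.66 (3.37 to 10.2) in CBMA_18m, 5.75 (2.33 to 17.0) in CBMD_12m and 3.42 (2.00 to 6.29) in CBMD_18m. For Kng2 it was 4.85 (2.65 to 9.89), 9.20 (3.60 to 30.0) and 1.90 (1.12 to 3.42), and for Serpina3g 10.1 (3.87 to 37.7), 23.0 (3.63 to 958) and 2.17 (1.10 to 4.76). The cells with 1 to 4 did not always lie between. Over the 3 divisions Kng2 stood at 71.7, 392 and 348 CPM and Serpina3g at 26.1, 361 and 264 CPM in CBMA_18m. Kng1 stood at 82.6, 476 and 475 CPM in CBMD_12m, and Serpina3g at 138, 134 and 299 CPM in CBMD_18m. In the remaining pairs of these genes and libraries the level rose at each step. Kng1, Kng2 and Serpina3g were thus higher in the Adipoq-rich than in the Adipoq-free cells of all 3 libraries. Serpina3n was not: its ratio was 4.72 (2.09 to 13.2) in CBMA_18m and 0.561 (0.302 to 1.06) in CBMD_18m. The latter rests on 19 UMIs held by 3 of the 11 Adipoq-free cells. Serpina3f had ratios of 1.53 (0.890 to 2.80) in CBMA_18m, 25.5 (4.09 to 1059, 20 UMIs against 1) in CBMD_12m and 5.20 (1.66 to 26.2) in CBMD_18m. In CBMA_18m its 16 UMIs in Adipoq-free cells came from 4 of 20 cells. Without Xist-positive cells only 3 Adipoq-rich and 10 Adipoq-free cells were left in CBMD_12m, with ratios of 10.6 for Kng1 (3.68 to 34.4) and 9.54 for Kng2 (2.87 to 36.2), and with 3 UMIs of Serpina3f and 2 of Serpina3g in all.

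**Figure D4:**
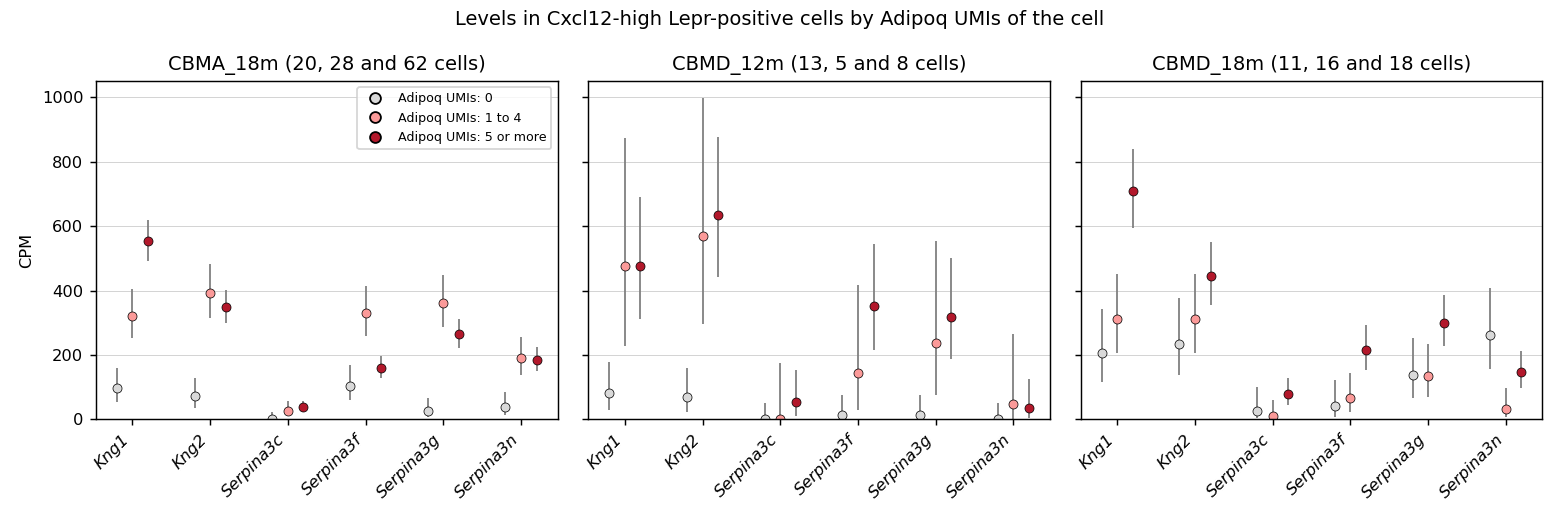
Level (CPM) of each gene in Cxcl12-high cells with 0, 1 to 4 and 5 or more UMIs of Adipoq, in 3 libraries with the number of cells above each panel, and exact 95% Poisson intervals. Kng1 stands at 97.7, 321 and 553 CPM in CBMA_18m, while Kng2 there is highest, at 392 CPM, in the cells with 1 to 4. Serpina3n in CBMD_18m is highest, at 262 CPM, in the cells without Adipoq, from 19 UMIs in 3 of 11 cells.

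The ages can be compared in Cxcl12-high cells in CBMD alone, between 26 cells at 12m and 45 at 18m. Kng1 was 1.77-fold higher at 18m (1.26 to 2.53) and Serpina3n 7.11-fold higher (2.30 to 35.6). The Serpina3n ratio came from 50 UMIs in 17 cells against 3 UMIs in 2 cells. Kng2 differed by 1.05-fold (0.755 to 1.47), Serpina3g by 1.40-fold (0.880 to 2.32) and Serpina3f by 0.889-fold (0.536 to 1.51), each with an interval that includes 1. Serpina3c, with 18 UMIs against 3, had a ratio of 2.56 (0.747 to 13.6) and too few UMIs to be counted. At least 1.5-fold higher were 2 of 5 members, against 9.55% of the 1581 genes compared, and lower 0 of 5, against 25.4%. The median of all genes in this comparison stood at -0.24 on the log2 scale. The mean over cells of each cell's own CPM, which weights every cell alike, gave 1.04 for Kng1.

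The 12m side of that comparison was mixed. Of its 26 cells, 8 held an Xist UMI, with a median depth of 8043 UMIs, and 18 did not, with 3504. The 8 cells held 18 of the 24 Serpina3f UMIs (253 CPM) and 17 of the 24 Serpina3g UMIs (239 CPM), but 0 of the 3 Serpina3n UMIs. The 18 cells held 75.7 CPM of Serpina3f, 88.3 CPM of Serpina3g and 353 CPM of Kng1. Without the Xist-positive cells the 18m over 12m ratio was 1.43 for Kng1 (0.955 to 2.21), 1.12 for Kng2 (0.733 to 1.78), 1.87 for Serpina3f (0.802 to 5.34), 2.54 for Serpina3g (1.18 to 6.51) and 3.74 for Serpina3n (1.21 to 18.8). Serpina3f, Serpina3g and Serpina3n were then at least 1.5-fold higher and Kng1 was not, so of these ratios only that of Serpina3n exceeded 1.5 in both. An Xist UMI is found more readily in deep cells, and depth and origin cannot be told apart here.

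The sites were compared at 18m, with 110 cells in CBMA and 45 in CBMD. The CBMA over CBMD ratio was 0.829 for Kng1 (0.692 to 0.996), 0.847 for Kng2 (0.686 to 1.05), 1.36 for Serpina3f (0.990 to 1.90), 1.11 for Serpina3g (0.854 to 1.45) and 1.14 for Serpina3n (0.819 to 1.60). None of these 5 members was 1.5-fold apart, against 13.4% of 4145 genes higher in CBMA and 5.26% lower. Serpina3c, at 26 and 18 UMIs, had a ratio of 0.562 (0.297 to 1.09) and was below the count needed. Interferon-stimulated genes differed between the same cells, as 9 of the 10 compared were at least 1.5-fold higher in CBMA_18m, with a median of 1.21 on the log2 scale against 0.07 for all genes. The 12 genes of that list summed to 1852 CPM in CBMA_18m, 864 CPM in CBMD_12m and 487 CPM in CBMD_18m.

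In other stromal cells no member reached 50 UMIs over the sums of 18m and 02m in either site. Serpina3n, the only member with more than 4 UMIs in them in any library, had a ratio of 0.387 (0.150 to 1.04) in CBMA from 12 UMIs against 9.

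Outside the stroma only Serpina3f and Serpina3g had counts to compare. Pooled over libraries, Serpina3g stood at 75.3 CPM in T and NK cells (38.7 to 114 across libraries), 64.7 CPM in myeloid progenitors (26.2 to 94.6) and 47.1 CPM in B-lineage cells (18.5 to 74.7). These classes overlapped in their ranges. It stood at 4.62 CPM in mononuclear phagocytes (1.39 to 10.7), 4.12 CPM in erythroid cells, 2.37 CPM in basophils and 1.14 CPM in neutrophils (0.657 to 1.59). Serpina3f was lower in each, with 18.4 CPM in B-lineage cells, 10.6 CPM in T and NK cells, 5.05 CPM in progenitors and 1.00 CPM in mononuclear phagocytes. Thinned to 2000 UMIs, 14.1% of T and NK cells, 15.7% of progenitors and 12.6% of B-lineage cells of CBMA_18m held Serpina3g, against 0.294% of neutrophils, while 26.4%, 35.2% and 30.5% did so unthinned.

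Serpina3g exceeded its 02m level at 18m by 1.5-fold or more on both sites in 3 blood classes, the T and NK cells, B-lineage cells and mononuclear phagocytes. Each class is summed as a whole, so a change of level cannot be told apart from a change in the mix of its subtypes. Basophils and erythroid cells could not be compared in CBMD, where 02m held 12 and 7 of them, under the minimum of 20 cells. In T and NK cells of CBMA its level was 38.7 CPM at 02m, 114 CPM at 12m and 87.8 CPM at 18m. The CBMD library of 02m had 38.9 CPM, with 78.4 CPM at 12m and 72.0 CPM at 18m, so 02m was the lowest age of both sites. Without Xist-positive cells the 12m levels were 103 and 66.8 CPM. The 18m over 02m ratio was 2.27 (1.66 to 3.16) in CBMA, where 1 of 1 member was compared and 20.3% of genes were 1.5-fold higher, and 1.85 (1.11 to 3.28) in CBMD (1 of 1, 18.4% of genes). B-lineage cells of CBMA held 30.0, 49.4 and 74.7 CPM by age, a ratio of 2.49 (1.5 to 4.39). Those of CBMD held 18.5, 42.5 and 38.6 CPM, a ratio of 2.08 (0.929 to 5.80). Without Xist-positive cells the 12m levels became 72.0 CPM for CBMA and 45.5 CPM for CBMD. Serpina3f in these cells went from 0 UMIs at 02m to 65 at 18m in CBMA, for a ratio with a lower limit of 4.83. In CBMD it went from 3 to 51 UMIs, with a ratio of 1.83 (0.593 to 9.18). Both members were thus 1.5-fold higher in B-lineage cells of each site, against 9.33% of genes in CBMA and 12.3% in CBMD, though both CBMD intervals include 1. The CBMD call of Serpina3f was lost, at 1.22, without the highest doublet scores, and that of Serpina3g, at 1.24, with the mean of per-cell CPM. In the remaining classes counts were low: CBMA basophils held 1 UMI at 18m against 5 at 02m, a ratio of 0.0465 (0.000983 to 0.416), neutrophils had ratios of 0.836 (0.441 to 1.55) in CBMA and 1.14 in CBMD, and erythroid cells of CBMA held 4 against 1.

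In the myeloid classes the order of the ages was not the same at both sites, a difference that was not tested. Serpina3g in mononuclear phagocytes of CBMA measured 3.34, 6.52 and 10.7 CPM by age, 3.21-fold higher at 18m than at 02m (2.47 to 4.20). For CBMD the levels were 1.39, 8.24 and 5.16 CPM, a ratio of 3.73 (2.41 to 5.86). Without Xist-positive cells the 12m levels were 5.14 and 9.51 CPM. Serpina3f was 4.02-fold higher in CBMA (2.21 to 7.56), but without the highest doublet scores it had too few UMIs to compare. That made 2 of 2 members in CBMA, against 24.6% of genes, and 1 of 1 in CBMD, against 20.2%. This class pools clusters whose shares shifted with age. The cluster led by S100a4 went from 1386 cells at 02m to 148 at 18m in CBMA, and from 1102 to 184 in CBMD. The cluster led by C1qa went from 47 to 355 cells in CBMA and from 71 to 231 in CBMD. The part of this shift in the ratios was not tested. Myeloid progenitors of CBMA held Serpina3g at 51.7, 26.2 and 94.6 CPM, a ratio of 1.83 (1.28 to 2.65) for 18m over 02m (1 of 1, 26.3% of genes). Those of CBMD held it at 80.9, 41.2 and 77.3 CPM, a ratio of 0.956 (0.701 to 1.31, 0 of 1, 10.0% of genes). The CBMA ratio fell under the limit, to 1.42 with all deposited barcodes and 1.43 with no upper limit on genes. The 12m progenitors, at 27.3 and 23.5 CPM without Xist-positive cells, were the lowest of both sites and also the shallowest, with median depths of 2396 and 4076 UMIs against 7444 to 11206 in the other libraries. Endothelial Serpina3g, from 2 to 44 UMIs, ran by age through 57.6, 21.4 and 61.6 CPM for CBMA, and through 15.3, 36.9 and 64.5 CPM for CBMD. Its 18m over 02m ratio was 1.07 (0.477 to 2.81) for CBMA and 4.22 (1.025 to 37.2) for CBMD, the latter from 20 UMIs against 2, too few to be counted. Without Xist-positive cells the endothelial 12m levels were 38.5 and 32.6 CPM.

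**Figure D5:**
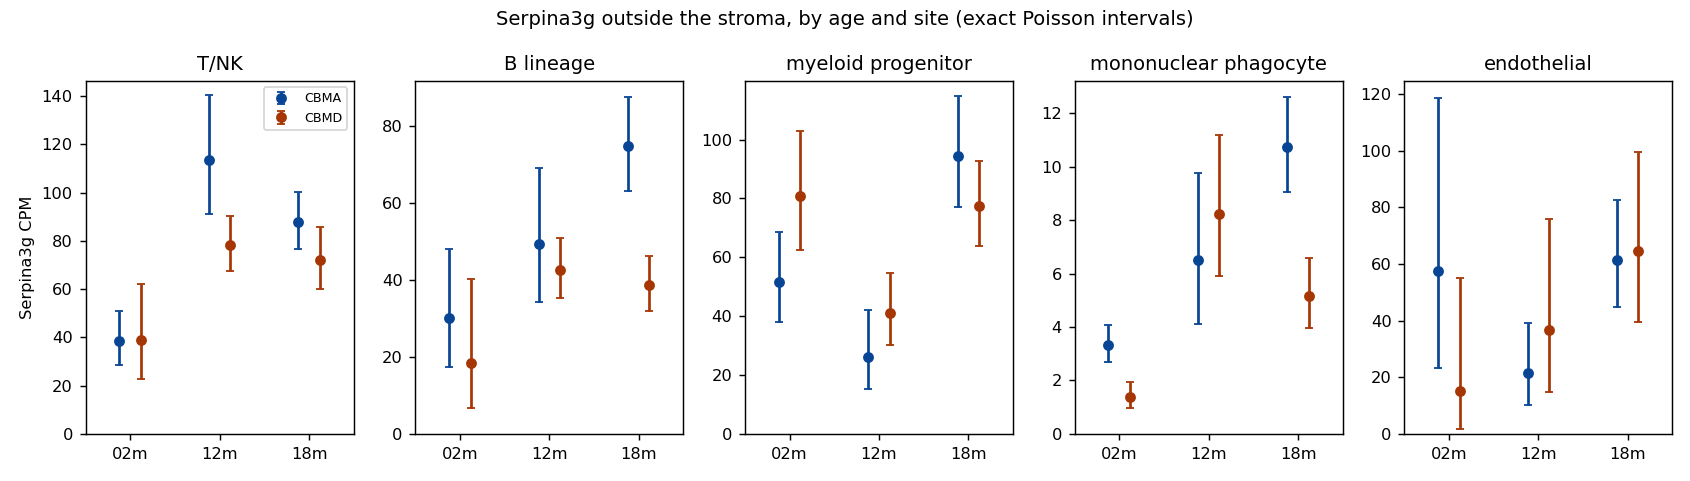
Serpina3g level (CPM) at 02m, 12m and 18m in 5 classes outside the stroma, blue for CBMA and brown for CBMD, with exact 95% Poisson intervals and an axis from 0 in each panel. In T and NK cells the 02m levels (38.7 and 38.9 CPM) lie below the 12m and 18m levels of the same site, whereas in myeloid progenitors the 12m levels (26.2 and 41.2 CPM) are the lowest.

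The rest of the kinin system was counted only in part in the same cells. Of its 19 other genes 9 had over 3 UMIs in the Cxcl12-high cells and 7 had none. The inhibitor of contact activation Serping1 (C1 inhibitor) stood at 2565 CPM over all Cxcl12-high cells, and the kinin-degrading peptidases Mme (neprilysin) and Ece1 at 554 and 115 CPM, followed by C1qbp, which binds kininogen on cell surfaces, at 39.2 CPM. The kallikreins and contact factors of this list had few UMIs or none, with 4 UMIs of Klkb1 (plasma prekallikrein), 1 of F12, 1 of F11 and 0 of Klk1. The kinin receptors Bdkrb1 and Bdkrb2 had 0 UMIs there, where 3 UMIs would stand at 2.03 CPM, and Bdkrb2 had 15 UMIs in endothelial cells (7.75 CPM). In CBMA_18m, 3 of the 7 genes compared were at least 1.5-fold higher than in other stromal cells (Mme, Xpnpep1 and Serping1) and 2 lower (Ace and Prcp), with a median of 0.47 on the log2 scale against 0.07 for all genes. Of all 6389 genes compared there 20.2% were higher and 15.3% lower, which is the background for the lists that follow as well. Cystatin genes and neighbors of the kininogens did not share their pattern, as Cst3 (cystatin C) stood at 3938 CPM in the Cxcl12-high and 4794 CPM in the other stromal cells, and the liver-expressed neighbors Ahsg, Fetub and Hrg had 1, 0 and 0 UMIs.

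The other serpins of the chromosome 12 cluster were nearly absent. Of 18 genes, 14 had 0 UMIs in Cxcl12-high cells and only Serpina12 (vaspin, an adipokine) had over 3, with 139 UMIs (93.9 CPM), against 0 in other stromal and endothelial cells and 15 in all blood cells. By library Serpina12 stood at 88.2 CPM in CBMA_18m, 79.7 CPM in CBMD_12m and 133 CPM in CBMD_18m. Serpina3m, Serpina3i and Serpina9 held 3, 1 and 1 UMIs. Of 15 serpins encoded elsewhere 9 had over 3 UMIs in Cxcl12-high cells and 5 had 0. Among the highest, Serpine2 (protease nexin) stood at 4807 CPM in Cxcl12-high and 490 CPM in other stromal cells, Serpinh1 (a collagen chaperone) at 775 and 1254 CPM, Serpinf1 (PEDF) at 271 and 1659 CPM, and Serpinb6a at 108 and 221 CPM. In CBMA_18m Serpine2 was at least 1.5-fold higher in Cxcl12-high than in other stromal cells, and Serpinb6a, Serpinb9 and Serpinf1 were at least 1.5-fold lower.

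Acute-phase genes, many of whose products the liver secretes in inflammation together with antichymotrypsin, were frequent in the Cxcl12-high cells. Of 21 genes 14 had over 3 UMIs and 6 had 0. The highest were Hp (haptoglobin, 4376 CPM), Cp (ceruloplasmin, 2572 CPM) and the complement genes C3 (971 CPM) and C4b (874 CPM). The list also holds regulators of this response, and all of these are among the 14. They are Cebpb, Cebpd, Socs3 and the cytokine Il6, with 296, 404, 483 and 16 UMIs. Cebpb and Cebpd stood higher in neutrophils (1359 and 546 CPM) than in Cxcl12-high cells (200 and 273 CPM), and Socs3 and Il6 lower. The part of free neutrophil RNA in the counts of this list was not tested. In CBMA_18m 6 of the 9 compared were at least 1.5-fold higher than in other stromal cells and 0 lower, with a median of 2.53 on the log2 scale. Interferon-stimulated genes were higher in 10 of 10, with a median of 2.00. Of the glucocorticoid-induced genes 1 of 8 was higher (Dusp1) and 1 lower (Tsc22d3), shares below 20.2% and 15.3%. Of the proteases that serpins and cystatins can bind, Ctsl, Ctsb, Ctsk and Ctsh stood at 640, 555, 102 and 74.3 CPM in Cxcl12-high cells, and 0 of 5 compared were higher and 2 lower (Ctsh and Ctsk) than in other stromal cells. Stromal reference genes were split, with 11 of 14 higher, Adipoq, Ebf3 and Kitl among them, and the collagens Col1a1, Col1a2 and Col3a1 lower.

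Likeness of pattern was measured by Pearson's r of log2(CPM + 1) over 57 sums of a class in a library, which share libraries and are dominated by the difference between stroma and blood, and is given as a description. The genes most like Kng1 were Gm16685 (0.98), Phex (0.97), Kng2 (0.95), Adipoq (0.94) and 7530428D23Rik (0.93). Those most like Kng2 were 7530428D23Rik (0.97), Adipoq (0.95), Serpina12 (0.95), Agt (0.95), the angiotensin precursor, and Kng1 (0.95). Serpina3n was most like Rspo2 (0.94), Ptgfr (0.91), Ms4a4d (0.91), Pdzrn4 (0.90) and Nnmt (0.90). Serpina3f was most like Serpina3g (0.71), Rgs16 (0.68), Gm37137 (0.66), Tmem37 (0.64) and Gm37663 (0.63). Serpina3g was most like 3 class I histocompatibility genes, H2-Q6 (0.75), H2-K1 (0.74) and H2-Q7 (0.73), then Prag1 (0.71) and Nudcd1 (0.71). Its r was 0.28 with Kng1 and 0.21 with Serpina3n. Serpina3c, with 51 UMIs, had too few for this measure.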

How the data were processed

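Per the labels, the authors counted UMIs with Cell Ranger on GRCm38 after bcl2fastq. The deposited values are raw counts of UMIs in called cells. The annotation release is not given in the sources used here. Following the study, barcodes were kept with above 500 UMIs, from 500 to 5000 genes, and mitochondrial UMIs below 25%. This left more cells than the study states, and the step behind the gap is not given in the sources used here. They were clustered (scanpy 1.11.5, Python 3.11.15: 2000 variable genes, 10 components, 20 neighbours, resolution 0.8, no integration). Doublets (Scrublet, highest scores up to 0.8% per 1000 barcodes) stayed in and were left out in an alternative. A gene was compared with at least 50 UMIs over 2 sums and called at 1.5-fold. Ratios have exact conditional binomial intervals and shares Clopper-Pearson intervals (scipy 1.17.1). The ratio script was tested on simulated data. UMIs of 12642642 to 50754324 per library were analysed, but Cxcl12-high sums held at most 906989, so a gene under 3 UMIs, 3.31 CPM, is at the floor there. The members and gene lists were chosen with earlier results of these data known. Named genes are the members, the 4 highest of each list in Cxcl12-high cells, any 1.5-fold apart in a described comparison, and the 5 most alike. An item of these lists is not reported here. Genes named at or near 0 UMIs, and the division by Adipoq, were chosen after values were seen. Kng1 was not in the promoter table.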

Additional observations from a re-analysis of the deposited data

Results flagged for a closer look

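Serpina3g in mononuclear phagocytes moved in opposite directions between 12m and 18m at the sites, with an 18m over 12m ratio of 1.647 (1.06 to 2.68) in CBMA and 0.6261 (0.417 to 0.951) in CBMD. The difference itself was not tested, and 12m is 1 library at each site. The part of a changing mix of clusters within this class was not tested either. Without Xist-positive 12m cells the ratios were 2.09 (0.988 to 5.28, from 7 UMIs at 12m) and 0.542 (0.314 to 0.988, from 17), so the CBMA interval then included 1. In these cells Serpina3g was 6.52 and 8.24 CPM at 12m and 10.7 and 5.16 CPM at 18m.

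Barcodes outside the limits on genes and mitochondrial UMIs also held the members. Among them 20 passed the Cxcl12 and Lepr limits, 15 of which had over 5000 genes. They held 137 UMIs of Kng1, 114 of Kng2, 14 of Serpina3c, 43 of Serpina3f, 71 of Serpina3g and 29 of Serpina3n. In CPM these are 297, 247, 30.4, 93.2, 154 and 62.9, and Kng1 was in 14 of the 20 barcodes. The limits thus left out the Cxcl12-high barcodes with the most genes, and whether these are single cells was not tested.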

How the results depend on the processing

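No paired analysis was possible because each age and site is 1 library with no replicate number. Of 79 recomputed counts of members, 70 stayed within 1.5 times of the reported count. The 5 members higher than in other stroma, and the 5 higher than in blood, stayed at 5 or 6 under every alternative run. The count of members apart between sites at 18m was 1 in place of 0 with all deposited barcodes and with no upper limit on genes (Serpina3c, 0.558 and 0.557), with a minimum of 20 UMIs (Serpina3c, 0.562) and with the mean of per-cell CPM (Serpina3n, 1.51). The count apart between ages in Cxcl12-high cells was 1 in place of 2 with the mean of per-cell CPM and with a fold limit of 2 (Kng1 was lost). Serpina3g was added with all deposited barcodes (1.55), no upper limit on genes (1.54) and median-of-ratios factors (1.65), and Serpina3c with a minimum of 20 UMIs (2.56). The count between ages in other stromal cells was 1 in place of 0 with a minimum of 20 UMIs (Serpina3n). Without the Xist-positive 12m cells, an alternative chosen after seeing the data, the count was 3, of which only Serpina3n was among the reported 2. Cells of CBMA_18m with any member made up 77.1% when thinned to 2000 UMIs, 56.4% at 1000 UMIs and 89.1% unthinned. Serpina3f in CBMD B-lineage cells, from 3 UMIs at 02m, turned from 1.83 to 0.519 with the mean of per-cell CPM. Of 323 recomputed values of single genes, 301 stayed within the interval of the reported value. Depth limits Serpina3c most, with 47 UMIs in all Cxcl12-high cells.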
